A study of Mus musculus with 26 samples.

Results

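The p300 binding events of motor neurons on day 6 and day 5 of differentiation were compared. They came from 2 of the 26 samples, 1 chromatin immunoprecipitation sequencing (ChIP-seq) library per day, and every event listed for these libraries was taken. The day 6 list held 1337 events and the day 5 list 19398, together 20735 of the 115466 events in all event lists of the series. An event is a single position with the precipitated reads assigned to it (IP reads), the scaled reads of a control library and the fold of one over the other. A library of 1 day has no replicate, so shares are given with exact (Clopper-Pearson) 95% binomial intervals that cover counting error only, and no test between days was possible.

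The acetyltransferase p300 is a transcriptional coactivator. Sequence-specific factors recruit it to promoters and enhancers, where it acetylates histones, H3K27 among them, and its occupancy is widely used to map active enhancers. Accessible chromatin, read by transposase insertion in ATAC-seq, and the H3K27ac mark are the usual companions of p300 at such sites.

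The cells were spinal motor neurons made from mouse embryonic stem cells of the Ainv15 type, in the line labelled iCre. All cells of both p300 libraries received 1 uM retinoic acid (RA) and 0.25 uM of the hedgehog agonist SAG on day 2. The Notch pathway inhibitor DAPT, at 5 uM, was given on days 4 and 5 to the day 6 cells and on day 4 to the day 5 cells. The same p300 antibody, of a single lot, was used on both days, and the labels call both populations postmitotic. ATAC, H3K27ac, Onecut1 and Isl1 of day 6 and day 5 came from cells of the same line and treatments, the day 4 ATAC and H3K27ac cells had RA and SAG and no DAPT, and the day 2 ATAC cells had none of the 3 agents. Onecut1 and Isl1 were mapped by ChIP-exo, which trims the precipitated DNA with an exonuclease, and not by ChIP-seq. The Ngn2 map was made on day 4 with a V5 antibody in cells induced with doxycycline. The day 6 and day 5 RNA libraries came from iCre cells, while those of day 0 and day 4 came from a line labelled HBG3.

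The day 6 p300 list was shorter and its events held fewer reads. IP reads per day 6 event had a lowest value of 11, a median of 26.8 and a highest of 147.0, with 39625 in all. Those per day 5 event had a lowest value of 10.0, a median of 55.0 and a highest of 2283.0, with 1397409 in all. The lists thus began at about the same number of reads and differed in how far they reached upward. IP reads are not scaled to the size of the library, and the reads sequenced per library are not given in the sources used here.

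Over the whole lists the median fold over control was 6.1 on day 6 and 6.7 on day 5, but the strong events differed. In the strongest decile it was 4.7 on day 6 and 14.4 on day 5, and in the weakest, where the median of scaled control reads was 1.4 on day 6 and 3.1 on day 5, it was 11.4 on day 6 and 5.6 on day 5. Over all events scaled control reads had a median of 4.2 on day 6 and 8.5 on day 5, so events with more IP reads on day 5 also stood on more control reads. An authors' −log10 q-value of 5 or more was held by 90 of 1337 day 6 events (6.73%, interval 5.45 to 8.21) and by 13176 of 19398 day 5 events (67.9%, 67.3 to 68.6). The median −log10 q was 2.65 on day 6 and 7.75 on day 5, and the lowest was 2.01 on day 6 and 2.0 on day 5. Most day 6 events therefore lay near the threshold of their list, and most day 5 events well inside it. Events also lay closer together on day 5. Another event of the same list stood within 500 bp of 36 day 6 events (2.69%) and of 6444 day 5 events (33.2%).

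A match was an event of the other day within 500 bp. By this measure 594 of 1337 day 6 events had a day 5 event (44.4%, 41.7 to 47.1), and 693 of 19398 day 5 events had a day 6 event (3.57%, 3.32 to 3.84). The day 6 share was set against a list 19398 events long and the day 5 share against one of 1337. Matches were close in position. Of the day 6 events, 312 lay within 50 bp of a day 5 event, 147 at 51 to 100 bp, 99 at 101 to 200 bp and 36 at 201 to 500 bp. Only 13 lay at 501 to 1000 bp, 400 lay at 10001 to 100000 bp and 207 lay farther still. The farthest match was at 492 bp and the nearest event counted as unmatched at 508 bp, so few events sat near the limit. With only events at a −log10 q of 5 or more in both lists, 74.4% of the 90 day 6 events and 0.569% of the 13176 day 5 events were matched.

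Matching followed read number steeply on day 6 and weakly on day 5. In the strongest decile of the day 6 list, with 44.0 to 147.0 IP reads, 88.8% of events had a day 5 event, and over deciles 2 to 10 the share was 79.1, 64.9, 60.9, 41.8, 32.8, 27.1, 18.7, 23.9 and 6.02%. In the strongest decile of the day 5 list, with 132.0 to 2283.0 IP reads, 5.88% had a day 6 event, and over deciles 2 to 10 the share was 3.81, 3.81, 3.87, 2.94, 3.09, 3.87, 3.3, 2.68 and 2.48%. The strong day 6 events were nearly all on the day 5 list, and the strong day 5 events were nearly all missing from the day 6 list. Control reads rose with IP reads in both lists. Their median was 11.7 in the strongest and 1.4 in the weakest decile of day 6, and 13.0 and 3.1 on day 5. Without events of 10 or more scaled control reads in either list, 34.5% of day 6 events were matched.

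**Figure D1:**
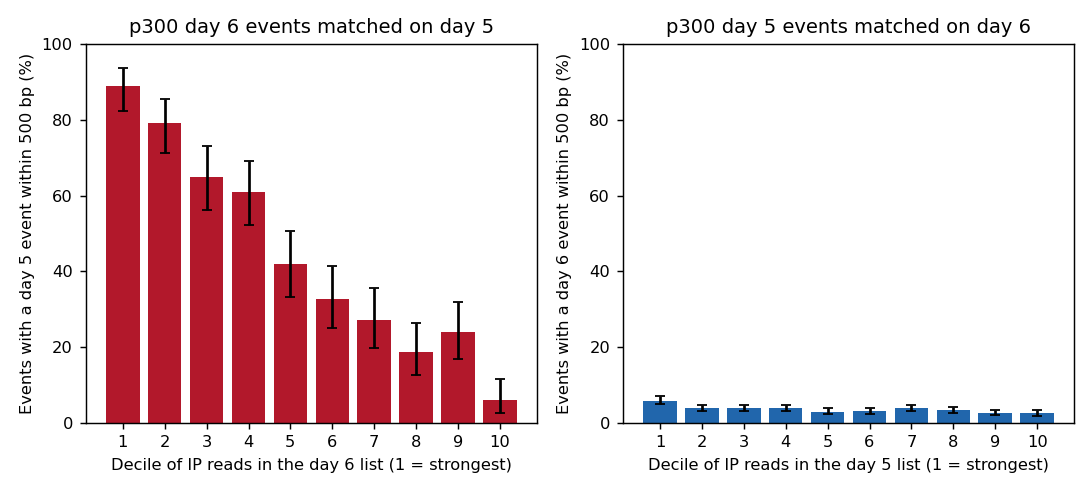
Share of p300 events with an event of the other day within 500 bp (y, %) by decile of IP reads within the list (x, 1 = strongest), day 6 at left and day 5 at right; bars are shares and whiskers exact 95% binomial intervals. The day 6 share falls to 6.02% in decile 10, against 88.8% in decile 1, and the day 5 share lies between 2.48 and 5.88%.

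With lists of equal length the overlap was small. The 1337 strongest day 5 events, all with 154.0 or more IP reads, matched 83 of 1337 day 6 events (6.21%, 4.97 to 7.64). At a −log10 q of 5 or more in both lists it was 1 of 90 (1.11%). Of the 100 strongest events of each day 2 matched each other (2.0%, 0.243 to 7.04), of the 250 strongest 3.2%, of the 500 strongest 5.4% and of the 1000 strongest 6.8%. The same top day 6 events were mostly found once the whole day 5 list was used: 91.0% of the strongest 100, 84.4% of the strongest 250, 74.2% of the strongest 500 and 54.5% of the strongest 1000 had some day 5 event. Of the strongest 100 day 5 events 3.0% had some day 6 event, and of the strongest 1000 6.8%. The partners of day 6 events were spread through the day 5 ranking, with a median rank of 7778 among the 19398.

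**Figure D2:**
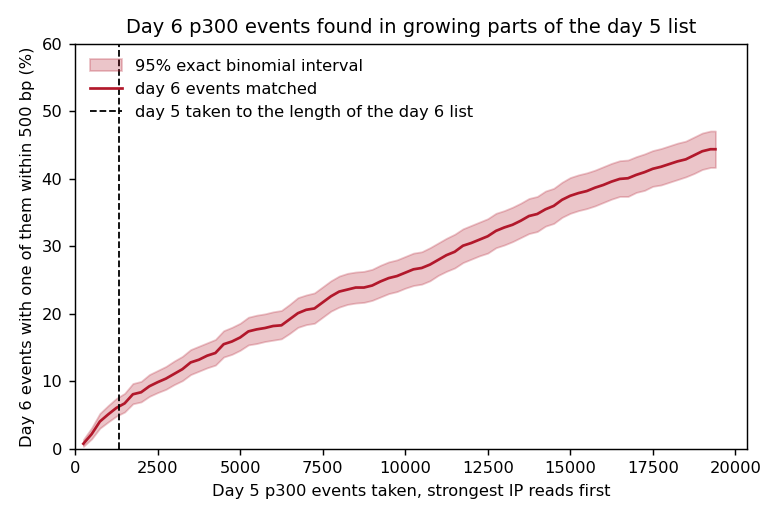
Share of the 1337 day 6 events with a match (y, %) among the day 5 events taken from the strongest downward (x, number of events); the band is the exact 95% binomial interval and the dashed line marks 1337 day 5 events. The share climbs to 6.21% at the dashed line and to 44.4% at the full list without a plateau.

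Within the 594 pairs of a day 6 event and its nearest day 5 event, the median distance was 47.5 bp. Median IP reads were 33.0 on day 6 and 65.7 on day 5, the median of the day 6 over day 5 ratio was 0.55, and 85 pairs had more reads on day 6. Scaled control reads had a median of 6.5 on day 6 and 7.3 on day 5. Across pairs the reads of both days went together, with Spearman's rho of 0.568 and Pearson's r of 0.557 on log2 reads; the pairs share their libraries and, where local background is high, their control reads, so these values only describe them.

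The strongest sites illustrate the 3 classes, with positions in mm9 and without gene names, since no annotation of that build was used here. They were the 5 events with the most IP reads in each class, at least 10 kb apart. The strongest day 6 event, at position 3084440 of chromosome 17, held 147.0 IP reads over 54.6 control reads on day 6 and 385.0 over 59.9 on day 5. Its control reads were the most of any day 6 event, and the ATAC score there was 426.4, 436.7, 487.5 and 572.1 on days 2, 4, 5 and 6, so control reads and ATAC scores were high at this site as well. The event at 26038224 of chromosome 2 held 123.0 IP reads on day 6 and 116.0 on day 5, one of the pairs with more reads on day 6. It lay 9 bp from the strongest Onecut1 event of day 6, with 806.8 IP reads, and had no H3K27ac peak in any of the 4 libraries. The 3 others held 109.7 reads on day 6 and 41.6 on day 5 (position 107543706 of chromosome 3), 102.0 on day 6 and 206.0 on day 5 (148296025 of chromosome 4), and 97.0 on day 6 and 302.8 on day 5 (98452153 of chromosome 11).

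The strongest day 6 events with no day 5 event held fewer reads. They had 78.4 IP reads at 99793404 of chromosome 6, 68.0 at 12165788 of chromosome 8, 66.0 at 13696274 of chromosome 10, 60.0 at 125639826 of chromosome 5 and 56 at 95453819 of chromosome 2. All 5 were at an ATAC peak on day 6 and on day 5, 4 of 5 had a Onecut1 event on day 6 and 4 of 5 an H3K27ac peak on day 6. None was at an ATAC peak of day 2. For 2 of them the nearest day 5 event was 6517 and 7344 bp away, and for the others it was 74752 bp or more.

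The strongest day 5 events with no day 6 event were of a different kind. They held 2283.0 IP reads at 55797726 of chromosome 12, 2181.7 at 87236334 of chromosome 11, 2128.3 at 116862517 of chromosome 4, 1644.1 at 17408070 of chromosome 14 and 1546.2 at 115939444 of chromosome 5. Fold over control was 38.5 to 51.7 at these sites. All 5 were at an ATAC peak on days 2, 4, 5 and 6 and at an H3K27ac peak in all 4 libraries, so the chromatin was listed as accessible and acetylated on day 6 although no p300 event was listed there; the nearest day 6 event was 22685 bp or more away.

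Both lists lay mostly in chromatin that was accessible on the same day. An event was counted at a peak when it lay inside it or within 500 bp of its edge. An ATAC peak of day 6 was found at 1023 of 1337 day 6 events (76.5%, 74.1 to 78.8), and one of day 5 at 16832 of 19398 day 5 events (86.8%). An H3K27ac peak of the same day was found at 948 day 6 events (70.9%, 68.4 to 73.3) and at 11844 day 5 events (61.1%, 60.4 to 61.7). Counting only events inside an ATAC peak, whose median width was 100 bp, gave 29.6% on day 6 and 26.1% on day 5, and inside an H3K27ac peak 36.6% on day 6 and 30.4% on day 5. Within 500 bp, neither was found at 14.8% of day 6 events and at 9.22% of day 5 events.

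The order of the H3K27ac shares depended on the peak lists. The H3K27ac list of day 6 held 47275 peaks and that of day 5 held 24525; with 24525 peaks taken on both days, by falling score, the share was 57.7% on day 6 and 61.1% on day 5. It depended on the p300 lists as well. Of the 1337 strongest day 5 events, 94.1% were at an H3K27ac peak and 96.2% at an ATAC peak of day 5.

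Within each list both shares fell with read number. In the strongest decile 97.0% of day 6 events and 96.5% of day 5 events were at a same-day ATAC peak, and in the weakest decile 35.3% of day 6 and 51.1% of day 5 events were. For H3K27ac the strongest decile gave 94.0% on day 6 and 93.9% on day 5, and the weakest 29.3% on day 6 and 16.8% on day 5. The strongest deciles of both lists were therefore alike in the share at accessible, acetylated chromatin, although the H3K27ac lists held 47275 peaks on day 6 and 24525 on day 5. These deciles held 134 events on day 6 and 1940 on day 5, and the overlap between them was not computed. The weakest deciles began at 11 IP reads on day 6 and 10.0 on day 5.

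**Figure D3:**
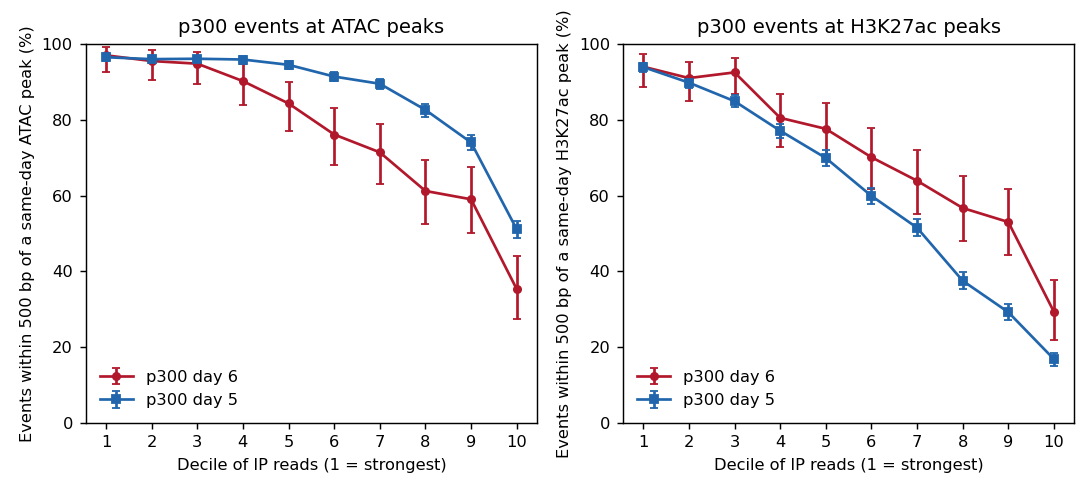
Share of p300 events within 500 bp of a peak of the same day (y, %) by decile of IP reads (x, 1 = strongest), for ATAC at left and H3K27ac at right; points are shares with exact 95% binomial intervals, circles day 6 and squares day 5. In decile 1 both days lie between 93.9 and 97.0%, and in decile 10 between 16.8 and 51.1%.

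Day 6 events with a day 5 match were in accessible chromatin more often than those without. An ATAC peak of day 6 stood at 93.9% of matched day 6 events (91.7 to 95.7) and at 62.6% of unmatched ones, and neither ATAC nor H3K27ac of day 6 stood at 2.36% of matched and 24.8% of unmatched ones. Median IP reads were 33.0 for matched and 23.0 for unmatched day 6 events, so the classes differed in read number too. Among day 5 events the contrast was smaller: an ATAC peak of day 5 stood at 91.2% of matched and 86.6% of unmatched events.

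The lists also differed in how early their sites had been accessible. Of day 6 events 21.7, 28.0, 64.7 and 76.5% were at an ATAC peak of days 2, 4, 5 and 6. Of day 5 events the shares were 65.1, 71.2, 86.8 and 81.9%. For all ATAC peaks of day 6, 59.9% had a day 2 peak within 500 bp, and for all those of day 5 62.0% had one. Over the whole lists the day 6 events were thus accessible on day 2 less often than ATAC peaks in general, and the day 5 events about as often. The day 2 share was 74.3% in the strongest and 31.1% in the weakest decile of day 5 events. For day 6 events it was 23.1% in the strongest and 13.5% in the weakest decile. The ATAC peaks were all open on their own day, while not all p300 events were at a same-day peak. The day 2 list is the longest of the 4, with 85989 peaks, against 47839, 55131 and 52645 on days 4, 5 and 6.

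The gap was also present among events with like read numbers. In both lists the events with at least 20 and under 40 IP reads were taken, with median scaled control reads of 4.7 on day 6 and 5.7 on day 5. Of these, 23.8% of day 6 events (21.1 to 26.7) and 50.7% of day 5 events (49.3 to 52.0) were at an ATAC peak of day 2, while 80.2% of the day 6 and 77.2% of the day 5 events were at one of the same day. A same-day Onecut1 event stood at 45.5% of the day 6 and 9.73% of the day 5 events in this range. Equal reads are not equal rank, since the range holds the middle of the day 6 list and the lower part of the day 5 list.

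Day 5 events with and without a match differed in the same way. Of matched day 5 events 32.2, 43.0, 91.2 and 94.7% were at an ATAC peak of days 2, 4, 5 and 6, against 66.3, 72.3, 86.6 and 81.4% of unmatched day 5 events. Matched day 6 events, which are the same sites, gave 30.3, 40.6, 89.4 and 93.9%, and unmatched day 6 events gave 14.8, 18.0, 45.0 and 62.6%. H3K27ac of the progenitor stage gave the same picture: on day 4 a peak stood at 18.8 and 14.4% of day 6 events in replicates 1 and 2, and at 62.2 and 57.5% of day 5 events. H3K27ac of day 6 stood at 79.9% of day 5 events, most of which had no p300 event on day 6.

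**Figure D4:**
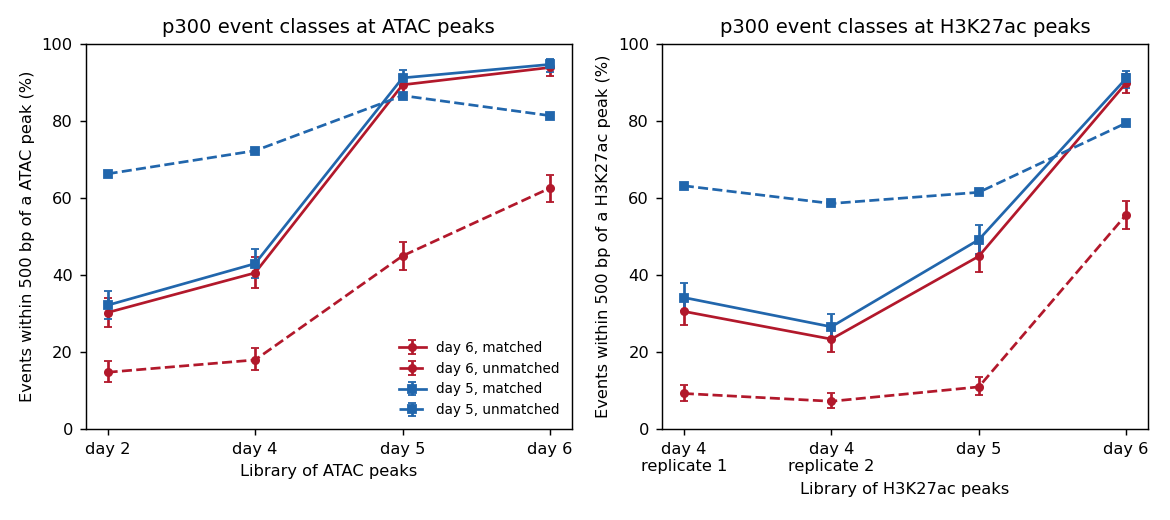
Share of p300 events within 500 bp of a peak (y, %) in each ATAC library (left) and each H3K27ac library (right) along x, for matched (solid) and unmatched (dashed) events of day 6 (circles) and day 5 (squares); points are shares with exact 95% binomial intervals. On ATAC day 2, unmatched day 5 events stand at 66.3% and the other 3 classes between 14.8 and 32.2%.

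Events were then sorted by the first day with an ATAC peak. Sites first open on day 5 made up 35.6% of the day 6 list (33.0 to 38.2) and 15.4% of the day 5 list. Those first open on day 6 made up 14.8% of day 6 and 2.36% of day 5 events, and those first open on day 4 made up 10.9% of day 6 and 9.73% of day 5 events. Sites with no ATAC peak on any day made up 17.0% of day 6 and 7.43% of day 5 events. Late opening sites thus took a larger share of the day 6 list, although fewer in number: 476 day 6 events and 2991 day 5 events were first open on day 5.

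The share of day 5 events that had a day 6 event differed between these histories. It was 1.77% of those open on day 2 (1.54 to 2.01), 5.61% of those first open on day 4, 10.4% of those first open on day 5 (9.36 to 11.6), 7.66% of those first open on day 6 and 1.18% of those with no ATAC peak (17 of 1442). Median IP reads were 63.0 in events open on day 2, 43.0 in those first open on day 5 and 23.1 in those with no ATAC peak. Within the strongest decile of the day 5 list, 2.43% of events open on day 2 (1.7 to 3.36) and 22.6% of those first open on day 5 (17.1 to 28.9) were matched. The gap between these 2 histories was thus present within a decile of read number.

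**Figure D5:**
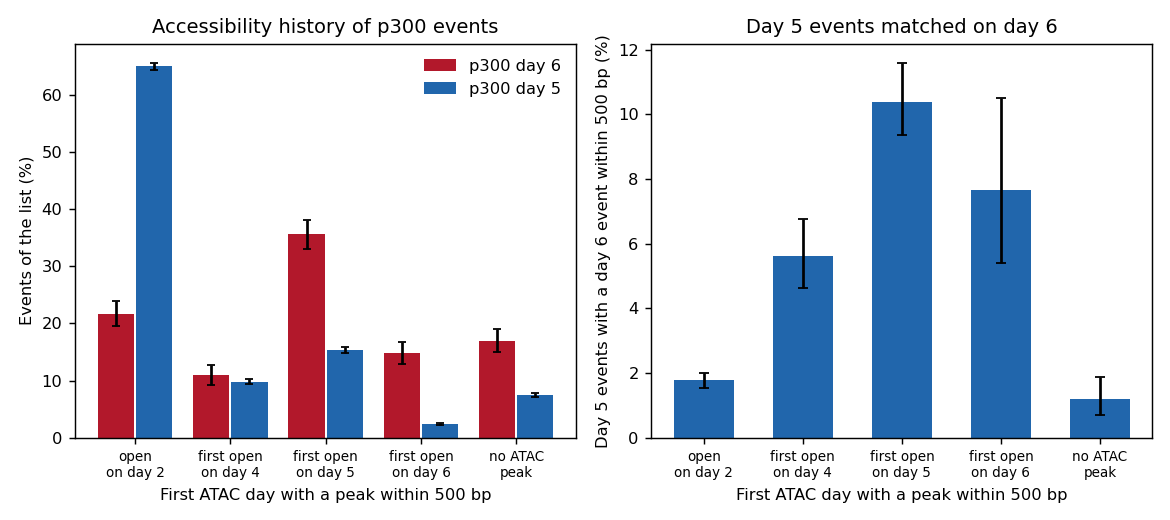
Left, share of the p300 list (y, %) by the first ATAC day with a peak within 500 bp (x), day 6 bars left of day 5 bars; right, share of the day 5 events of each history with a day 6 event within 500 bp (y, %); whiskers are exact 95% binomial intervals. Sites open on day 2 make up 65.1% of day 5 events, and 1.77% of them are matched on day 6.

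Day 6 p300 events lay at motor neuron factor sites more often than day 5 events did. Onecut1, a homeodomain factor expressed in newly born motor neurons, had an event of the same day within 500 bp of 606 day 6 p300 events (45.3%, 42.6 to 48.0) and of 1801 day 5 p300 events (9.28%). The Onecut1 lists differed in length, 63488 events on day 6 and 23245 on day 5, and day 5 Onecut1 events, a single list set against both, stood at 31.2% of day 6 p300 events. Of all ATAC peaks of day 6 19.0% had a day 6 Onecut1 event, and of those of day 5 7.98% had a day 5 one, so the day 6 p300 share lay well above that of open chromatin and the day 5 share near it.

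Isl1, a LIM homeodomain factor that specifies motor neurons, also had a higher same-day share on day 6. Its day 6 events stood at 14.2% of day 6 p300 events in replicate 1 and 12.4% in replicate 2, and its day 5 events at 4.65% and 2.66% of day 5 p300 events. With the day 5 Isl1 lists set against both, the shares were close. They were 5.91% of day 6 and 4.65% of day 5 p300 events in replicate 1, and 3.81% and 2.66% in replicate 2. With the day 6 Isl1 lists set against both, the shares were farther apart. Replicate 1 gave 14.2% of day 6 and 3.08% of day 5 p300 events, and replicate 2 gave 12.4% and 2.94%. In the strongest deciles the day 5 Isl1 lists stood at 21.6% of day 6 and 8.25% of day 5 p300 events in replicate 1, and at 14.9% of day 6 and 5.36% of day 5 p300 events in replicate 2. There same-day Onecut1 stood at 67.2% of day 6 and 10.6% of day 5 p300 events, and Isl1 at 38.1 and 32.1% on day 6 and 8.25 and 5.36% on day 5. Ngn2, a proneural bHLH factor of progenitors, went the other way, with its induced day 4 events at 2.09% of day 6 and 5.31% of day 5 p300 events. In the strongest deciles the Ngn2 shares were 7.46% on day 6 (3.64 to 13.3) and 11.3% on day 5, with overlapping intervals. For Isl1 and Ngn2, unlike Onecut1, the share over all ATAC peaks was not computed.

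Day 5 events at Onecut1 sites were matched more often, within each history given here. With a day 5 Onecut1 event 12.3% of day 5 p300 events were matched on day 6 (10.8 to 13.9), and without one 2.68% were. Among sites first open on day 5 the shares were 18.7% with Onecut1 and 7.82% without, and among sites open on day 2 they were 6.64% and 1.55%. Over all histories, median IP reads of day 5 p300 events were alike, 54.0 with Onecut1 and 55.0 without. Within the histories compared they were higher with Onecut1. Among sites open on day 2 they were 66.0 with Onecut1 and 63.0 without, and among sites first open on day 5 they were farther apart. Read number was therefore not equal within these histories.

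Other factors of the series gave larger overlaps between days at equal length. The 1337 strongest Onecut1 events of day 6 had one of the 1337 strongest of day 5 within 500 bp in 47.0% (44.3 to 49.7), against 6.21% for p300. The Isl1 replicates of day 6 matched each other in 36.1% of 1337 events, those of day 5 in 50.8% of 1079, and Isl1 of day 6 matched Isl1 of day 5 in 13.9 to 26.6% over the 4 pairs of libraries. At 1079 events p300 gave 6.58% (5.17 to 8.23), below each of these. The p300 overlap between days was therefore lower than each of the 5 overlaps between days of Onecut1 and Isl1, and no p300 replicate shows what repeat libraries of 1 day would give. Equal length was also not equal depth. The 1337 events were the whole day 6 p300 list and a small part of the 19398 on day 5. For Onecut1 they were a small part of 63488 events on day 6 and of 23245 on day 5.

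At a length of 1000 events, the day 6 p300 share at H3K27ac peaks lay within the range of the factor lists of its day. At ATAC peaks it was below Onecut1 and Isl1 replicate 1 and level with Isl1 replicate 2. That length takes in most of the 1337 day 6 p300 events and a small part of the 63488 of Onecut1. Of the 1000 strongest day 6 events 85.5% were at an ATAC peak and 80.0% at an H3K27ac peak; for day 6 Onecut1 it was 93.5% and 80.0%, and for the 2 Isl1 libraries 91.7 and 85.2% for ATAC and 84.3 and 79.0% for H3K27ac. On day 5 p300 stood above the factors, with 95.6% of its 1000 strongest events at ATAC and 94.6% at H3K27ac peaks, against 84.5% and 32.0% for Onecut1. Several measures that bear on the quality of the p300 libraries were lower on day 6. The list was shorter, its −log10 q-values were lower, and the median fold of the strongest decile was 4.7 against 14.4 on day 5. The ATAC share of the weakest decile was lower on day 6 as well. The H3K27ac share of that decile was not, but the H3K27ac list held 47275 peaks on day 6 against 24525 on day 5. Nor was the ATAC share at 20 to 40 IP reads, the middle of the day 6 list and the lower part of the day 5 list. How much of the difference between days comes from the libraries and how much from the cells cannot be told apart with 1 library per day.

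The RNA of p300 itself was similar on both days. RNA values are FPKM, fragments scaled to transcript length and library size, differences are of log2(FPKM + 1), which understates the change of low genes, and with 1 library per day a gene was called at 2-fold with no test. Ep300 stood at 10.8, 10.6, 13.7 and 12.6 FPKM on days 0, 4, 5 and 6, a difference of -0.11 for day 6 minus day 5. Crebbp, which encodes the paralogous acetyltransferase CBP, stood at 2.25, 8.25, 6.4 and 4.7 FPKM, a difference of -0.38. Of the 11164 genes at 1 FPKM or more on either day, 6.57% were called higher and 6.19% lower on day 6. Day 6 FPKM were also rescaled by the median ratio of day 6 to day 5 over genes at 1 FPKM or more on both days. After this, 57.7% of the called genes were higher, against 51.5% as deposited.

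The RNA of acetyltransferases, coactivators that work with p300, acetyl-lysine readers and class I deacetylases was read against a background. This was 12.8% of all tested genes called either way. Of the 10 acetyltransferases 1 was lower and none higher, Hat1, which acetylates new histone H4, with 3.86 FPKM on day 6 against 12.3 FPKM on day 5. Of the coactivator list 8 of 11 genes reached 1 FPKM and none was called; the largest difference was -0.84 for Maml1, a Notch coactivator, with 1.36 FPKM on day 6 against 3.22 on day 5. None of the 3 acetyl-lysine readers was called, with -0.55 the largest difference, for Brd3. Of the 4 class I deacetylases Hdac1 was lower and none higher, with 5.17 FPKM on day 6 against 18.3 on day 5. The medians of these lists lay between -0.16 and -0.21, beside -0.07 for all genes tested, and 1 called gene among 10 or 4 is too few to set against the background shares.

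The cells behind the lists differed in stage. Of the mapped factors Neurog2, which encodes Ngn2, was called lower, with 0.899 FPKM on day 6 against 29.9 on day 5, and so was Lhx3, with 3.9 on day 6 against 24.1 on day 5. Isl1 was not called, with 116.0 FPKM on day 6 against 88.0 on day 5, nor was Onecut1, with 14.0 on day 6 against 12.5 on day 5. All 5 progenitor markers were called lower on day 6, as were 6.19% of all genes tested, with a summed level of 11.7 FPKM on day 6 against 53.1 on day 5. Olig2, which specifies motor neuron progenitors, had 0.95 FPKM on day 6 against 17.3 on day 5. All 4 markers of cycling cells were called lower too, with a summed 16.0 FPKM on day 6 against 97.0 on day 5, so the day 5 cells, which the labels call postmitotic, held RNA of cycling genes such as Top2a (3.07 on day 6, 37.8 on day 5). Motor neuron markers summed to 172.0 FPKM on day 6 against 180.0 on day 5, and of these 6 genes Slc5a7, the choline transporter of cholinergic neurons, was called higher (6.05 on day 6, 0.519 on day 5) and Lhx3 and Lhx4 lower. After rescaling by the median ratio of day 6 to day 5, -0.08 on the log2 scale, Lhx4 at -0.99 and the progenitor gene Hes5 at -0.98 were no longer called. No ES cell or endothelial and blood marker reached 1 FPKM on either day, and of the 5 glial markers only Mbp did (9.9 on day 6, 11.5 on day 5). Of the 6 interneuron markers Sim1 was called higher (3.24 on day 6, 0.529 on day 5) and Lhx1 was not called (1.11 on day 6, 2.21 on day 5). In bulk RNA fewer cells of a type and less RNA per cell cannot be told apart, and the part of the progenitor and cycling markers in the p300 difference was not tested.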

How the data were processed

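The p300 lists are deposited tables of events in mm9 with IP and Control read signal, their ratio (Fold) and −log10 q- and p-values, as the authors' files head them. Which control library served each list is not stated in the sources used here. ATAC and H3K27ac lists are deposited peak intervals, with a score per peak on a scale that was not stated, used only to rank peaks within a list. RNA values are the authors' deposited FPKM. The tools named are Bowtie 0.12.7, HOMER 4.7.2, STAR and MACS, per the submitters' processing notes, with no role given.

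Distances were computed with Python 3.11.15, numpy 2.4.6 and pandas 2.3.3, and intervals with scipy 1.17.1. The limit was 500 bp from event to event or to the nearest peak edge. Deciles and equal lengths ranked events by IP reads. The geometry passed all 7 checks on simulated lists. Named sites were the 5 strongest of each class, at least 10 kb apart. Of each gene list the members past 2-fold are named or, with none, the one with the largest difference; Ep300 and Crebbp are given in full, and of the marker lists chosen examples. Genes under 1 FPKM on both days were not called. The members and lists were chosen with earlier results of these data known.

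The library labelled Lhx3 is not used beside the p300 lists, since the factor it maps was not settled.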

Additional observations from a re-analysis of the deposited data

How the results depend on the processing

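No paired analysis was possible because each p300 library stands alone for its day and no result comes from a test. Of 60 alternatives for the main shares and the RNA count, 22 stayed within the counting interval (for the count, within 1.5 times) and 38 moved. Day 6 events matched on day 5, 44.4%, became 34.3% at 100 bp, 74.4% with −log10 q of 5 or more in both lists (67 of 90 events) and 34.5% without events of 10 or more control reads. Day 5 events matched on day 6, 3.57%, became 2.44, 3.13 and 3.85% at 100, 200 and 1000 bp, 3.02% with each event used in 1 match, 0.569% at the stricter q and 3.89% without high controls. The equal-length share, 6.21%, was 5.46 to 7.26% under all alternatives but the stricter q, where it was 1.11% (1 of 90 events). Day 6 events at ATAC, 76.5%, became 29.6% inside the peak, 61.3% at 100 bp, 51.6% with the higher scoring 50% of peaks and 94.4% at the stricter q. Day 5 events at ATAC, 86.8%, became 26.1, 63.8 and 88.6% at 0, 100 and 1000 bp, 71.2% with the higher scoring 50% of peaks, 86.0% with equal peak numbers, 93.5% at the stricter q, 80.7% without high controls, 84.9% with near events joined and 96.2% for the strongest 1337. Day 6 events at H3K27ac, 70.9%, became 36.6 and 55.9% at 0 and 100 bp, 56.7% with the higher scoring 50% of peaks, 57.7% with equal peak numbers, 91.1% at the stricter q and 68.1% without high controls. Day 5 events at H3K27ac, 61.1%, became 30.4, 45.2 and 62.5% at 0, 100 and 1000 bp, 48.1% with the higher scoring 50% of peaks, 74.5% at the stricter q, 50.6% without high controls, 56.9% joined and 94.1% for the strongest 1337. The order of the days for ATAC turned inside the peak and at the stricter q, and that for H3K27ac turned with equal peak numbers and for the strongest 1337 day 5 events. A pseudocount of 0.1 FPKM called 2204 genes in place of 1425.

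Alternatives for the day 2 ATAC and Onecut1 shares were added after the data were seen. Day 6 events at day 2 ATAC peaks stayed below day 5 events at 100 bp (13.4 and 42.9%), 1000 bp (25.0 and 67.6%) and the stricter q (13.3 and 72.5%). The share of day 6 p300 events at same-day Onecut1 events stayed above that of day 5 events at 100 bp (37.1 and 5.56%), 1000 bp (48.3 and 11.5%) and the stricter q (66.7 and 9.0%). Neither replicates nor library depths were at hand, so how many sites missing on day 6 fell below detection in that library was not tested.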

Other observations

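Few p300 events lay on chromosome X. It held 3 of 1337 day 6 events (0.224%, 0.0463 to 0.654) and 300 of 19398 day 5 events (1.55%, 1.38 to 1.73), and 2 of the 1337 strongest day 5 events (0.15%, 0.0181 to 0.539). The other lists of the same days held more there: 2.95% of ATAC peaks on day 6 and 2.81% on day 5, 2.27% of H3K27ac peaks on day 6 and 2.38% on day 5, and 2.25% of Onecut1 events on day 6 and 2.06% on day 5. These other shares are of full lists and were not computed at equal length.

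Seen from Onecut1, strong sites were often without a listed p300 event on day 6. Of the 100 strongest Onecut1 events of day 6, 32 had a day 6 p300 event within 500 bp (32.0%, 23.0 to 42.1), and of the 100 strongest of day 5, 75 had a day 5 one (75.0%, 65.3 to 83.1). In the strongest decile of the Onecut1 lists the shares were 10.3% on day 6 and 39.0% on day 5. In the weakest they were 0.0315% on day 6 and 2.62% on day 5. The p300 lists set against them held 1337 events on day 6 and 19398 on day 5. The strongest Onecut1 deciles held 6349 events on day 6 and 2325 on day 5. All these shares depend on list length, and p300 lists of equal length were not used here.

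Of all ATAC peaks of day 6, 2.13% had a day 6 p300 event and 29.7% a day 5 one within 500 bp, and of all ATAC peaks of day 5, 1.77% had a day 6 and 30.4% a day 5 one.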
